A study of Mus musculus with 2 samples.

Results

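Genes of the brain extracellular matrix, 10 in number, were followed through ribosome profiling of the neonatal mouse brain: the lecticans Ncan, Bcan, Vcan and Acan, the further proteoglycans Ptprz1 and Cspg5, the tenascins Tnc and Tnr, the link protein gene Hapln1, and Reln. They form a list of names, with no threshold on a measured value, and all 10 were found among the 45578 genes of the deposited table. For each gene the count of one transcript was used, the isoform with most footprints over both libraries. The material was brain of control mice at postnatal day 5, of genotype Smn+/-; SMN2tg/0 on a congenic FVB background, so all animals carried a single intact copy of mouse Smn and a human SMN2 transgene. There was 1 group with 2 replicates and no other condition. The replicates are called biological in the labels, but the labels do not say whether each came from a separate animal. A p-value here sets the reads of these 2 libraries against counting error or a preset variation, and measures no spread between animals. Ribosomes were captured with RiboLace, a pull-down on beads that carry a puromycin analogue and bind translating ribosomes, and the captured ribosomes' RNA fragments of 25 to 35 nt, the footprints, were sequenced.

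The matrix of the young brain is built on hyaluronan, a long sugar polymer to which lecticans bind through their N-terminal domains. Link proteins hold that bond, and tenascins crosslink the far ends of the lecticans. Chondroitin sulfate chains on the lecticans, on Ptprz1 and on Cspg5 restrain or guide growing axons, and the later condensation of this matrix forms the perineuronal nets around some neurons. Reelin is a secreted glycoprotein made by Cajal-Retzius cells and later by interneurons, and it steers the layering of migrating neurons.

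Per length of coding sequence, 4 proteoglycans stood highest among these genes. Neurocan (Ncan), brevican (Bcan), Cspg5 (neuroglycan C) and Ptprz1 (the receptor phosphatase whose secreted form is phosphacan) together held 78.4% of the 10 genes' counts in replicate 1 and 78.9% in replicate 2. Tenascin-R (Tnr), reelin, tenascin-C (Tnc) and versican (Vcan) formed a lower tier per length. By count alone, reelin (116 and 29) was close to Bcan (107 and 42) and Cspg5 (107 and 34). The link protein Hapln1 and aggrecan (Acan) were close to the limit of detection. Of the 8 genes that could be tested, 0 were called different between the libraries. The shares called were 4.14% of all genes tested and 0.956% of the protein-coding ones.

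The depth of the libraries sets how firmly each gene can be read. At the gene level replicate 1 held 343552 counts and replicate 2 held 120282, and after scaling to 1000000 counts per library (CPM) a single count was worth 2.71 CPM in the former and 8.93 CPM in the latter. The 10 genes together had 1230 counts in replicate 1, which was 0.358% of the library (95% Wilson interval 0.339 to 0.379), and 380 counts in replicate 2, which was 0.316% (0.286 to 0.349). These intervals overlapped, which does not show that the shares are equal, and like all intervals given here they cover counting error only. The shares also depend on the make-up of each library, as protein-coding genes held 279531 and 87925 of the gene-level counts. On the CPM scale the 10 genes had 3333 and 3393. Markers set for neurons, astrocytes and radial glia, and the oligodendrocyte lineage (6 each) were all detected, as the label of brain requires. Neuronal markers held 0.628% and 0.636% of counts, astrocyte and radial glia markers 0.215% and 0.220%, and oligodendrocyte lineage markers 0.059% and 0.056%, in replicates 1 and 2. Fibroblast genes of the meninges were present as well, at 0.061% and 0.078%, as were erythroid genes, at 0.410% and 0.385%, and sparse genes of endothelium (59 and 26 counts) and microglia (58 and 16 counts).

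Because a longer coding sequence gathers more footprints at the same rate of protein output, levels of different genes were compared as footprint density, in CPM per kilobase (kb) of coding sequence. In whole brain, a lower density can come, among other sources, from fewer cells of a type or from less of the RNA in each cell. Only footprints were counted, so a density is not a measure of RNA level, and these sources cannot be told apart. The 10 genes span coding lengths from 1071 nt for Hapln1 to 10386 nt for Reln, with a median of 5205 nt against 1119 nt for all 20757 protein-coding genes with a coding length. Only 89 of those genes had a longer coding sequence than Reln. The median density of the 10 genes was 28.9 CPM per kb, against 5.09 for all protein-coding genes and 23.0 for the 10446 with a count in both libraries. Of the 10, 6 lay above the last value, and 4 lay above the 90th percentile of all protein-coding genes.

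**Figure D1:**
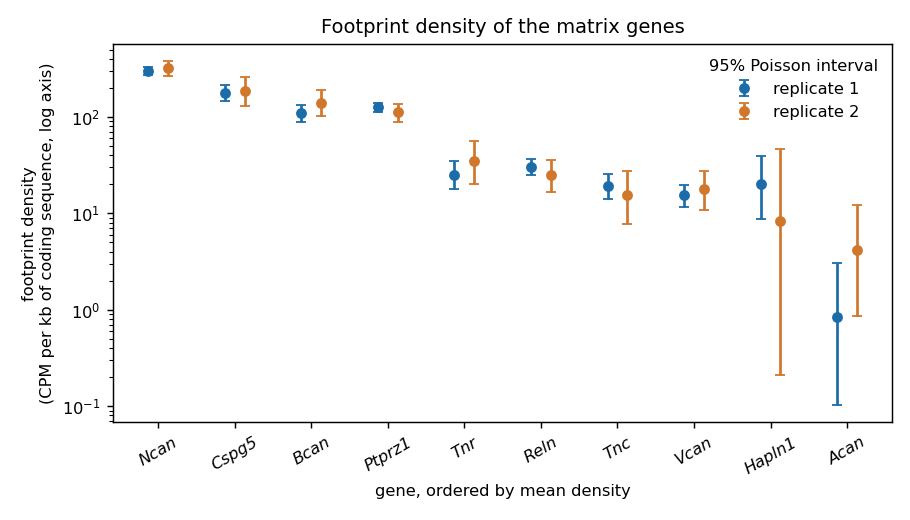
Footprint density (CPM per kb of coding sequence, log axis) of each gene in replicate 1 (blue) and replicate 2 (orange), with bars for the 95% Poisson interval of the count. Ncan stands highest in both libraries, the 4 proteoglycans on the left lie above 100 CPM per kb in both, and Acan lies lowest in both.

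Among the lecticans, neurocan led by a wide margin. Ncan, with a coding sequence of 3807 nt, had 425 counts in replicate 1 and 137 in replicate 2. Its density was 303 and 321 CPM per kb in the respective libraries, or 312 ± 13.3 (SD, n = 2), which placed it at rank 462 of the protein-coding genes. Brevican, the lectican with the shortest coding sequence here at 2652 nt, had 107 and 42 counts and a density of 125 ± 22.7 CPM per kb (SD, n = 2). Bcan was lower in replicate 1, at 109, than in replicate 2, at 141, and even the higher value stayed below both values of Ncan.

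Versican and aggrecan contributed little. Vcan, whose kept transcript has a coding sequence of 10065 nt, had 57 and 20 counts and a density of 16.5 ± 1.69 CPM per kb (SD, n = 2). Acan, the lectican best known from cartilage and from perineuronal nets, had 2 counts in replicate 1 and 3 in replicate 2 over 6399 nt of coding sequence. Its density of 0.847 CPM per kb in replicate 1 (95% Poisson interval 0.103 to 3.06) and 4.19 in replicate 2 (0.863 to 12.2) is known only within those bounds.

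Expressed as shares of the summed lectican density, Ncan held 68.5% ± 3.09, Bcan 27.4% ± 2.57, Vcan 3.62% ± 0.053 and Acan 0.531% ± 0.471 (each SD, n = 2). The order of the 4 was the same in both libraries. As shares of lectican counts, which favour long genes, Ncan held 71.9% (95% Wilson interval 68.2 to 75.4) and 67.8% (61.1 to 73.9), while Vcan rose to 9.64% (7.52 to 12.3) and 9.90% (6.50 to 14.8). The intervals of each lectican's share overlapped between the libraries.

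The non-lectican proteoglycans stood level with brevican or above it. Cspg5, a membrane-anchored proteoglycan with an EGF-like domain, had 107 and 34 counts on a coding sequence of only 1620 nt. Its density of 179 and 187 CPM per kb, or 183 ± 5.95 (SD, n = 2), was the second highest of the 10. Ptprz1, with a coding sequence of 6939 nt, had 325 and 87 counts and a density of 119 ± 10.6 CPM per kb (SD, n = 2). Ptprz1 thus had 2.79 times the CPM of Cspg5, while Cspg5 had 1.53 times the density of Ptprz1.

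The 2 tenascins were read at similar counts and modest density. Tnr, which in the brain is made largely by oligodendrocyte lineage cells and some interneurons, had 38 and 16 counts and a density of 30.2 ± 6.92 CPM per kb (SD, n = 2). Tnc, a tenascin of radial glia and immature astrocytes, had 45 and 11 counts and a density of 17.4 ± 2.65 CPM per kb (SD, n = 2). Tnr was denser than Tnc in both libraries, at 25.3 against 19.3 CPM per kb in replicate 1 and 35.0 against 15.5 in replicate 2, though the counting intervals overlapped in both (17.9 to 34.7 against 14.0 to 25.8, and 20.0 to 56.9 against 7.74 to 27.8).

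Reelin stood near Bcan and Cspg5 by count but well below both by density. Reln had 116 and 29 counts, so that its CPM of 287 ± 39.2 (SD, n = 2) came close to those of Bcan and Cspg5, at 333 ± 60.2 and 297 ± 9.65 (each SD, n = 2). Spread over 10386 nt of coding sequence, these counts gave a density of 30.3 and 24.9 CPM per kb, or 27.6 ± 3.77 (SD, n = 2), in the range of the tenascins. Hapln1, which encodes a small protein that clamps lecticans to hyaluronan, had only 8 counts in replicate 1 and 1 in replicate 2. Its density was 20.2 CPM per kb in replicate 1 (95% Poisson interval 8.74 to 39.9) and 8.34 in replicate 2 (0.211 to 46.5), so its place against Reln, Tnc and Vcan is not settled at this depth.

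The order of mean density was Ncan, Cspg5, Bcan, Ptprz1, Tnr, Reln, Tnc, Vcan, Hapln1 and Acan. The highest mean was 124 times the lowest, a ratio that rests on the few counts of Acan and was 357 in replicate 1 and 76.8 in replicate 2. Of the 9 pairs of neighbours in this order, 4 had ranges over the libraries that overlapped and so did not differ beyond their spread. These were Bcan and Ptprz1, Tnr and Reln, Tnc and Vcan, and Vcan and Hapln1. The clearest steps were from Ncan to Cspg5 (1.70 times) and from Ptprz1 to Tnr (3.96 times), where the counting intervals did not overlap in either library. The counting intervals of Cspg5 and Bcan, and those of Hapln1 and Acan, were apart in replicate 1 but not in replicate 2, and those of Reln and Tnc overlapped in both. Cspg5 kept its place, at 133 CPM per kb, when the longest coding isoform was taken, but Bcan was then close behind at 128. Neighbouring pairs with overlapping ranges rose from 4 to 5 in that setting. Per kb of whole transcript Cspg5 was at 78.3, below Bcan and Ptprz1. When the counts of all isoforms were summed, which counts a shared footprint repeatedly, Cspg5 came first at 365 and Ncan, which has a single transcript, second at 157. The density of Hapln1, whose UTRs are long, was 3.03 per kb of whole transcript.

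**Figure D2:**
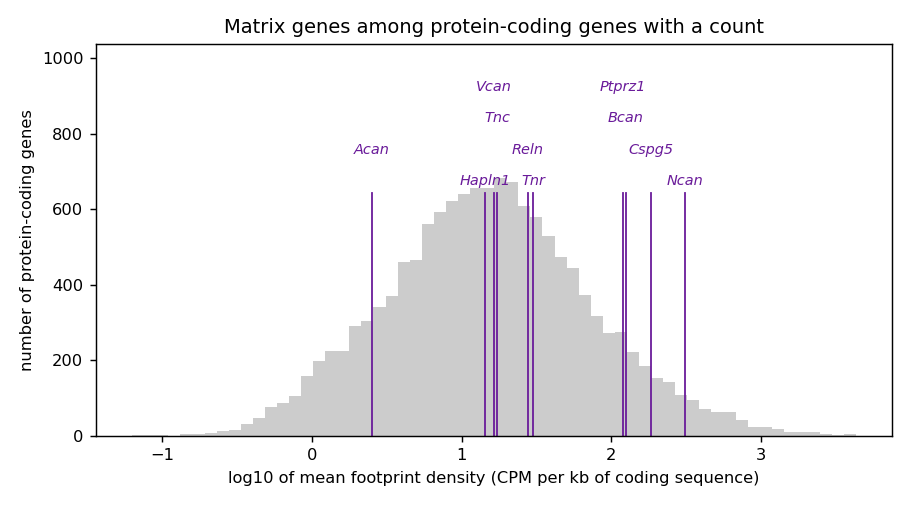
Number of protein-coding genes (vertical axis) by the log10 of their mean footprint density over both libraries (horizontal axis, CPM per kb of coding sequence), for genes with at least 1 count, with a line for each of the 10 matrix genes. Ncan, Cspg5, Bcan and Ptprz1 lie in the upper tail, the middle tier lies near the peak, and Acan lies in the lower part.

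With a single group, the comparison the design allows is between the libraries. Of the 10 genes, 8 reached the minimum of 10 counts on average over both libraries and entered a 2-sided exact binomial test per gene, adjusted by the Benjamini-Hochberg method over all 5436 genes tested. Hapln1 and Acan did not reach it. The test compares the reads of these libraries, not conditions. It called 225 genes, or 4.14% of all tested, of which 217 were higher in replicate 2 and 8 were lower. Among the 4392 protein-coding genes tested, it called 42, or 0.956%. It called 0 of the 8 matrix genes. At an unadjusted p under 0.05 there were 0 of the 8, which says little of so few genes. The background was 522 of the 5436 genes tested and 238 of the 4294 protein-coding ones with a coding length. A second test, edgeR's exact test with a preset biological coefficient of variation of 0.2, called 2.41% of all genes and 0 of the 8. The smallest adjusted p of the exact binomial test among them was 0.842, for Bcan. Of the cell type markers 2 were called, both higher in replicate 2. The neuronal tubulin Tubb3 had 1061 and 405 counts, with a log2 ratio of 0.33 (adjusted exact binomial p = 0.00365), and the collagen gene Col1a1 had 87 and 48, with a log2 ratio of 0.86 (adjusted exact binomial p = 0.037). Scaling by library totals ended both calls (adjusted p = 0.679 and 0.229), as did leaving out the count filter (0.952 and 0.319) and the preset coefficient of variation (1 for both), and the call of Col1a1 was also lost among protein-coding genes alone (0.129).

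The log2 ratio of replicate 2 over replicate 1, on log2(CPM + 1), was above 0 for 5 of the 8 and below 0 for 3, with a median of 0.08 against 0.00 for all genes tested. Scaling by library totals moved the median of all genes by -0.20 and that of the 8 to -0.13, and taking the longest coding isoform made the latter -0.04. Where a gene had many counts, the exact interval of the ratio was narrow. For Ncan the log2 ratio was 0.09, and its 95% interval ran from 0.870 to 1.29 on the fold scale. Ptprz1 had a log2 ratio of -0.18 and an interval of 0.688 to 1.12 fold. For Reln the log2 ratio was -0.28, with an interval of 0.529 to 1.25 fold. The scarcer genes were open to larger differences, as the interval of Tnr reached 2.55 fold and that of Tnc went down to 0.376 fold. The ratios of Hapln1 and Acan, from 9 and 5 counts in all, are not informative at this depth.

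**Figure D3:**
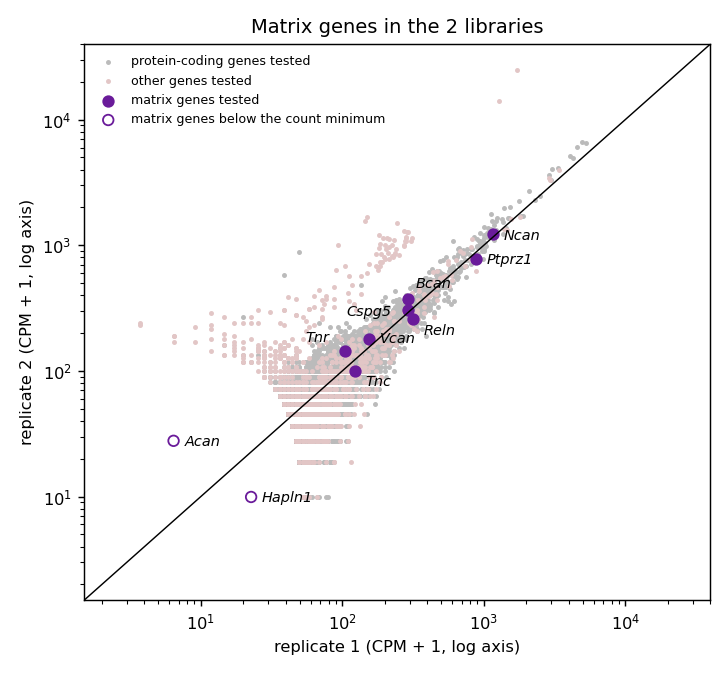
Abundance in replicate 1 (horizontal) against replicate 2 (vertical), both as CPM + 1 on log axes, for the 5436 genes tested (grey for protein-coding, pink for others) and the matrix genes (purple, open where the count minimum was not reached). The 8 tested matrix genes lie along the diagonal, within the cloud of protein-coding genes.

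Splice forms of the large proteoglycans could be compared because the table counts each transcript separately, and a footprint appears to be counted for every isoform it matches. Isoform counts therefore overlap and cannot be added. The count gained by a longer isoform over a shorter one estimates the footprints on the extra sequence if the shorter one is contained in the longer one, which the table does not state, and the untranslated regions (UTRs) of the isoforms differ too. The 10 genes had from 1 transcript (Ncan, Hapln1, Acan) to 15 (Reln).

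Versican is spliced to include or skip a pair of large coding blocks that carry its chondroitin sulfate chains. Its 4 long coding isoforms in the table, of 10065, 7185, 4848 and 1968 nt of coding sequence, add up as a common part of 1968 nt with both, either or neither of a 2880-nt and a 5217-nt block. The isoform with both blocks had 57 and 20 counts in replicates 1 and 2. The isoform with the 5217-nt block had 36 and 11, the isoform with the 2880-nt block had 30 and 14, and the shortest had 13 and 3.

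The count gained with the 2880-nt block was 21 and 9, a density of 19.8 CPM per kb (95% Poisson interval 12.2 to 30.2) in replicate 1 and 27.9 (12.8 to 53.0) in replicate 2. The 5217-nt block gained 27 and 6 counts, or 14.0 (9.24 to 20.4) and 10.3 (3.77 to 22.4) CPM per kb. The common part had 17.9 (9.53 to 30.6) and 13.6 (2.81 to 39.8) CPM per kb, and the intervals of the 3 parts overlapped one another in both libraries. The shorter block was the denser of the pair in both libraries, but the intervals overlapped in each. Starting from the shortest isoform in place of the longest gave gains of 17 and 11 counts for the 2880-nt block and 23 and 8 for the 5217-nt block.

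Ptprz1 gave a difference larger than the counting error. The gene yields a long and a short transmembrane receptor and the secreted phosphacan, and the table holds coding isoforms of 6939, 4839 and 4392 nt without saying which product each encodes. They had 325, 263 and 144 counts in replicate 1 and 87, 77 and 38 in replicate 2. Over the shortest isoform, the longest gained 181 and 49 counts on 2547 nt of coding sequence. That stretch had 193 CPM per kb (95% Poisson interval 166 to 223) in replicate 1 and 172 (127 to 227) in replicate 2, against 88.9 (74.9 to 105) and 77.3 (54.7 to 106) on the shortest isoform. It was 2.17 and 2.22 times as dense, with intervals apart in both libraries.

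Over the 4839-nt isoform, by contrast, the longest Ptprz1 isoform gained only 62 and 10 counts on 2100 nt. The gain amounted to 80.0 CPM per kb (61.3 to 103) and 42.5 (20.4 to 78.2), while the 4839-nt isoform itself had 147 (130 to 166) and 142 (112 to 178). The 4839-nt isoform was 1.84 and 3.34 times as dense as the extra stretch, again with intervals apart in both libraries. The 4839-nt isoform has a 3' UTR of 1927 nt, against 804 nt in the longest isoform, and the part of the UTRs in these gains was not tested.

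**Figure D4:**
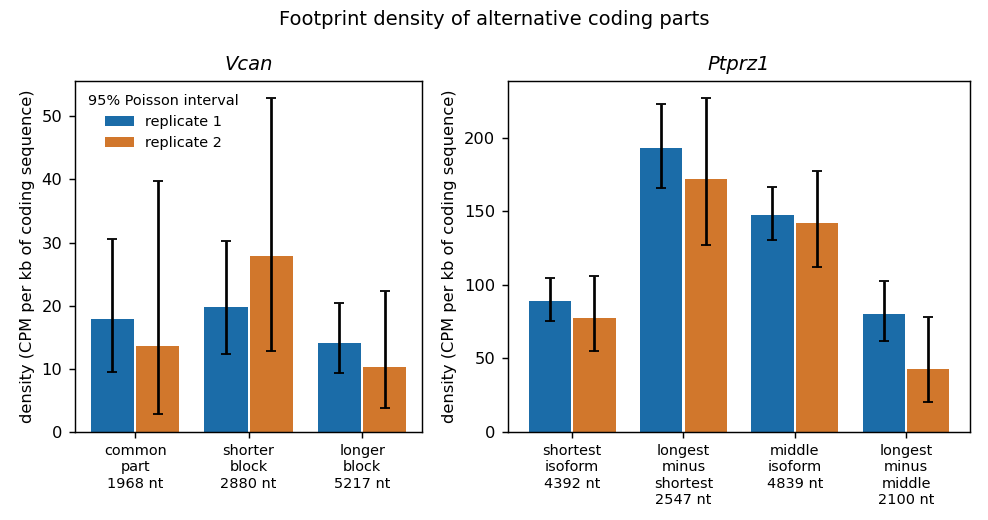
Footprint density (CPM per kb of coding sequence, linear axis from 0) of alternative coding parts of Vcan (left) and Ptprz1 (right) in replicate 1 (blue) and replicate 2 (orange), with 95% Poisson intervals, where the parts written as a block or as one isoform minus another come from differences of isoform counts. The Vcan intervals overlap throughout, while the Ptprz1 stretch of 2547 nt stands above the shortest isoform and the stretch of 2100 nt stands below the 4839-nt isoform in both libraries.

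The isoforms of Tnc, Reln, Tnr and Cspg5 were compared in the same way. Tnc isoforms with and without an extra 273 nt of coding sequence had the same 45 and 11 counts, where the density of the shorter would place 2.03 and 0.496 counts on the extra stretch, so a gain was not detectable at this depth. A shorter Tnc isoform, of 2499 nt of coding sequence, had 17 and 5 counts. Both full-length Reln isoforms had nearly equal counts, 116 and 29 against 110 and 29, and differ by 6 nt of coding sequence and 796 nt of 3' UTR. The Tnr isoform with a 3' UTR longer by 7332 nt had 39 and 13 counts against 38 and 16 on the kept isoform, which has the same coding length of 4077 nt. For Cspg5, the kept isoform lacks 81 nt of coding sequence and had 107 and 34 counts against 101 and 27 on the isoform that holds them. A further Cspg5 isoform, with a 5' UTR of 67 nt against 1815 nt in the kept one, a 3' UTR of 6091 nt against 355 nt, and 1710 nt of coding sequence, had 91 and 22 counts. Over a Cspg5 isoform with 1377 nt of coding sequence and a 5' UTR of 376 nt, the kept one gained 29 counts (95% Poisson interval 19.4 to 41.6) and 12 counts (6.20 to 21.0) with 243 nt more of coding sequence, where the density of the shorter would place 13.8 and 3.88. The lower bound of the gain was above those values in both libraries, but the 5' UTRs also differ, and their part in it was not tested.

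Each lectican gene sits next to a link protein gene in the genome (RefSeq, GRCm38.p6): Vcan beside Hapln1, Bcan beside Hapln2, Acan beside Hapln3 and Ncan beside Hapln4. The levels within these pairs were far apart in some cases. Ncan had a density of 312 CPM per kb and Hapln4, with 1 count in each library, one of 4.84, a ratio of 64.5 that rests on those 2 counts. Bcan had 107 and 42 counts, while Hapln2, a link protein of myelinated axons' nodes, had 0 in both libraries, which allows up to 3 counts in each. Vcan and Hapln1 had densities of 16.5 ± 1.69 and 14.3 ± 8.42 CPM per kb (SD, n = 2), with only 8 and 1 counts behind Hapln1, and Acan and Hapln3 were both low, with 2 and 3 counts and with 3 and 1 counts. The other link protein and tenascin genes as a list had 12 and 2 counts in all, a median of 2.76 CPM per kb over the 4 with a coding length and 0 of 5 at the count minimum, and the most of them, 6 and 0, fell on Tnxb, a tenascin of connective tissue. RefSeq places 12 other genes over 8 of the 10, none of them protein coding. Of the 8 of these that are in the table, the highest was a non-coding RNA gene over Vcan, Gm4117, with 16 and 10 counts. A pseudogene over Hapln1, Gm8546, had 10 and 7 counts, more than the 8 and 1 of Hapln1 itself. Whether counting used the strand is not given in the sources used here, and the part of such genes in the counts of Vcan and Hapln1 was not tested.

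Partners of these proteins were read from lists of related genes, each tested in the same fit. Of the genes of chondroitin sulfate synthesis, 25 were matched, with a median density of 11.4 CPM per kb. Only 4 of them reached the count minimum and 0 were called. At 4.14% of all genes tested and 0.956% of protein-coding ones, that says little of so short a list. By mean CPM the highest was Papss1, which makes the sulfate donor, with 66 and 13 counts, followed by the chondroitin polymerising factor Chpf with 25 and 5 and Ugdh, which makes a sugar precursor, with 12 and 7. Hyaluronan genes were sparser still, with 0 of 9 at the count minimum. The hyaluronan receptor Cd44 had 4 and 5 counts, Cemip had 9 and 3 and Tmem2 had 7 and 3. Among the synthases, Has3 had 8 and 1, Has2 had 2 and 0, and Has1 had 0 in both libraries.

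Of 24 other proteoglycan cores, 15 were tested and 1 was called, against 4.14% of all genes and 0.956% of protein-coding genes. App, which carries chondroitin sulfate in one of its splice forms, had 515 and 220 counts, with a log2 ratio of 0.49 (adjusted exact binomial p = 0.00119), and the call was lost with library totals (p = 0.234), without the count filter (p = 0.286) and with the preset coefficient of variation (p = 1). Testican-2 (Spock2) had 184 and 63 counts and syndecan-3 (Sdc3) 158 and 59, at densities of 417 ± 35.5 and 359 ± 52.5 CPM per kb (SD, n = 2), above that of Ncan. The median of the list was 38.6 CPM per kb. Cspg4, the NG2 proteoglycan of oligodendrocyte precursors, had 25 and 15 counts and a density of 14.4 CPM per kb.

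Receptors and ligands of the matrix had a median density of 30.6 CPM per kb, with 11 of 16 tested and 0 called. Of all genes tested 4.14% were called, and of protein-coding ones 0.956%. Pleiotrophin (Ptn), a ligand of Ptprz1, was the densest by far at 1600 ± 403 CPM per kb (SD, n = 2), from 246 and 107 counts. Contactin-1 (Cntn1), a further partner of Ptprz1, had 198 and 52 counts, and Ptprs, a receptor phosphatase for chondroitin sulfate, had 205 and 40. Matrix proteases and their inhibitors had a median of 5.17 CPM per kb, with 6 of 19 tested and 0 called, against the same shares. Their highest members by mean CPM were the inhibitor Timp2 with 83 and 31 counts, tissue plasminogen activator (Plat) with 53 and 15, and the membrane-bound metalloprotease Mmp15 with 27 and 8. Of the lectican-cleaving proteases, Adamts4 had 3 and 2 counts and Adamts5 had 0 and 1.

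Genes listed for the reelin pathway had counts from the receptors to the actin regulators, although Limk1, among the latter, had only 4 and 3. The reelin receptors Vldlr and Lrp8 had 17 and 5 counts and 13 and 4 counts, at densities of 17.9 and 12.4 CPM per kb, and the adaptor Dab1, which is phosphorylated on reelin binding, had 15 and 7 at 30.9 CPM per kb. Reln, at 30.3 and 24.9 CPM per kb, was above both receptors in each library, while Dab1, at 24.4 and 37.5, lay below Reln in replicate 1 and above it in replicate 2. In replicate 2, however, Vldlr, at 17.6, lay within the 95% Poisson interval of Reln (16.7 to 35.8). Its order against Reln is not settled there. Of 22 pathway genes 14 were tested and 1 was called, against 4.14% of all genes tested and 0.956% of protein-coding ones. Cofilin (Cfl1) had 424 and 175 counts, with a log2 ratio of 0.44 (adjusted exact binomial p = 0.0232), a call lost with library totals (p = 0.539), among protein-coding genes alone (p = 0.0825), without the count filter (p = 0.773) and with the preset coefficient of variation (p = 1). Pafah1b1 (Lis1) had 110 and 40 counts on a kept transcript with no coding length, so it has no density, and Gsk3b had 95 and 30. Of the markers of reelin-producing cells, Trp73 and Lhx5, which mark Cajal-Retzius cells, had 0 and 2 counts and 3 and 3 counts. The interneuron genes ranged widely. Sst had 115 and 35 counts, Gad1 66 and 23, Gad2 52 and 12, and Npy 21 and 11, but Dlx1 had 7 and 2 and Dlx2 6 and 3. Which cells the Reln footprints came from was not tested.

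**Figure D5:**
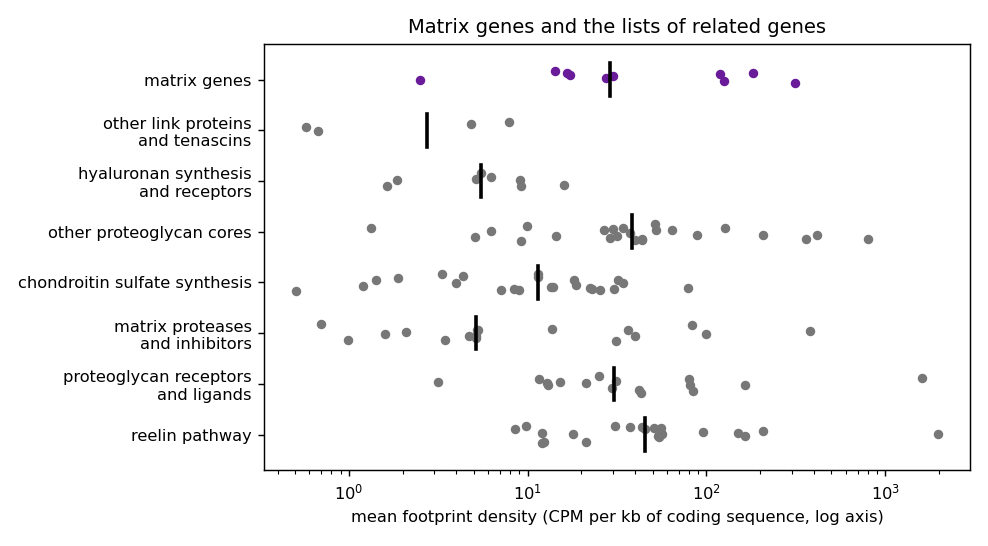
Mean footprint density over both libraries (CPM per kb of coding sequence, log axis) of each gene with at least 1 count, for the 10 matrix genes (purple) and 7 lists of related genes (grey), with a black bar at the median of each list, where a gene at 0 counts enters the median but not the points, and genes with no coding length (Hapln2, Pafah1b1) enter neither. The hyaluronan list and the other link proteins and tenascins lie below 20 CPM per kb throughout, while the matrix genes run from Acan to Ncan over more than 2 log10 units.

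For each of the 8 tested genes, the protein-coding gene outside the list with the most similar density in both libraries was sought among 4278 candidates, by distance on log2 density. Over only 2 libraries this measures level, not a shared pattern. The closest to Ncan was Psmb4, a proteasome subunit, at 300.0 and 326 CPM per kb, and the closest to Ptprz1 was Suclg1, an enzyme of the citrate cycle, at 128 and 112. Reln stood beside Wash1 at 30.4 and 25.0 CPM per kb, with 16 and 4 counts behind that gene. The nearest to Cspg5 was Sult4a1, to Bcan B4gat1, to Tnr Klhl2, to Tnc Pcdha11 and to Vcan Grid1.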

How the data were processed

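Footprint counts of 2 replicates of 1 group were analysed. The authors deposited whole-number counts per transcript, not normalised, with lengths of the transcript, coding sequence and UTRs, per the file header. Trimmomatic 0.36, Bowtie2 2.2.6, SAMtools and the build GRCm38.p4 are named in the submitters' processing notes. The counting rule, annotation release, filters and strand use are not given in the sources used here. Counts are per transcript, not per region, so a density per kb of coding sequence includes any footprints in UTRs.

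The gene members and the lists of related genes were chosen with earlier results of these data known. Symbols are the transcript names without their suffix. A tie between isoforms went to the longer transcript. All 10 identifiers had the same symbol in the name table. CPM used effective library sizes from TMM (a trimmed mean of ratios) in edgeR 4.0.16, with genes averaging 10 counts or more. The tests were an exact binomial test with adjusted p under 0.05 and, as an alternative, edgeR's exact test, the first of them tested on simulated data. Log2 ratios used a pseudocount of 1 CPM, which understates changes of low genes. No molecular identifiers are described, so PCR copies may be counted as separate footprints. The named genes were all members, the 3 with the highest mean CPM of each list, any called, those needed to read a small count, and the nearest gene in density. The lower-count genes named (Cspg4, Has1, Has2, Has3, Adamts4, Adamts5, Vldlr, Lrp8, Dab1, Limk1) and the markers were picked after their values were seen. Of the 10 hyaluronan names, 9 matched. No sequence is printed.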

Additional observations from a re-analysis of the deposited data

How the results depend on the processing

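No paired analysis was possible because the design holds a single group. The median density of the 10 genes, 28.9 CPM per kb, became 37.3 with isoforms summed, 37.5 with protein-coding genes alone as the library and 26.1 per kb of transcript, and 27.8 to 29.99 across the fits that left out a replicate each. The first counts a footprint several times and the second divides by a smaller total. Neighbours with overlapping ranges went from 4 to 1 with isoforms summed and to 5 with the longest coding isoform. The cause was not tested. Genes called went from 225 to 605 with isoforms summed, to 22 for protein-coding genes alone, to 75 at a count minimum of 50, where 764 genes remain, and to 131 with the preset coefficient of variation. Matrix genes called stayed at 0 in the 8 fits, with 5 (count minimum of 50) to 10 (no filter) of them tested. The share of all genes called ran from 0.501% for protein-coding genes alone to 9.82% at the minimum of 50. The smallest adjusted p among the matrix genes (exact binomial, or edgeR's exact test with the preset coefficient of variation) ranged from 0.327 to 1. With library totals and without the filter, 1 of them had an unadjusted p under 0.05. Of 70 alternative densities of single genes, 20 moved by more than the spread between replicates, and 0 of 50 alternative log2 ratios left their counting interval. Depth limits Hapln1 and Acan most, at 9 and 5 counts.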
